A study of Mus musculus with 24 samples.

Results

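The genes described here are the carriers that move small ions, phosphate and metals across membranes. They were chosen by symbol alone, as the protein-coding genes of the deposited count table whose name places them in solute carrier (Slc) family 4, 8, 9, 11, 12, 20, 24, 26, 30, 34, 39, 40 or 41. The rule found 87 genes of the 37991 in the table, of which 22337 were protein-coding. The names Slc9a3r1, Slc9a3r2 and Slc4a1ap belong to 3 binding proteins that are not carriers and were counted apart. By transported ion the members comprised 21 carriers of bicarbonate, chloride, sulphate and other anions, 14 that bring zinc and other metals into the cytosol (Slc39), 10 that take zinc out of it (Slc30), 10 sodium/proton exchangers, 9 cation-chloride cotransporters, 9 sodium/calcium exchangers, 5 phosphate carriers, 3 magnesium carriers and 3 iron and manganese carriers. Of the 87 members, 59 passed the filter on low counts and were tested, 25 had counts but did not pass it, and Slc26a3, Slc30a8 and Slc34a1 had no count in any library.

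The samples were whole mammary tissue of female mice, taken as tumours or hyperplastic glands from MMTV-PyMT mice and as normal glands from FVB mice of the same age. The PyMT mice were heterozygous for the polyoma middle T transgene on the FVB/N background, driven in mammary epithelium by the long terminal repeat of mouse mammary tumour virus, and the FVB mice lacked it. Tissue was collected at weeks 6, 8, 10 and 12, which the labels call hyperplasia, adenoma or mammary intraepithelial neoplasia, early carcinoma and late carcinoma in the PyMT mice, from 3 mice per genotype and week. This gave 8 groups and 24 ribosome-depleted RNA-seq libraries of 6969375 to 13516601 counts.

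Carrier families divide the ionic work of an epithelium between them. Sodium-coupled carriers use the gradient set up by the sodium pump to bring in phosphate, chloride or bicarbonate, whereas exchangers of the Slc9 and Slc4 families set the pH of the cell. Zinc carriers of the Slc39 family raise cytosolic zinc and those of the Slc30 family lower it by filling vesicles or exporting it. In the mammary gland the secretory epithelium moves phosphate, calcium, zinc and iron into milk, and several of these carriers are best known from lactation.

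Values below are normalised counts, that is counts divided by the size factor of the library, unless they are said to be per kilobase of exon, the scale on which levels of different genes were compared. Differences are log2 ratios of PyMT over FVB with their standard error, from the edgeR quasi-likelihood fit across 14918 tested genes, and a gene was called when its Benjamini-Hochberg adjusted p was under 0.05 and its fold over 2. In 6 PyMT and 7 FVB libraries, the histogram of counts over genes had a hump at 8 to 25 counts, here called a packet. Of 3799 genes with a median of 10 to 30 CPM, up to 4.40% read 0 in these libraries and up to 0.211% in the others. The 3 PyMT samples of week 6 and the 3 FVB samples of week 10 were of this kind. RNA of cell type markers also differed. Of 7 luminal epithelial markers 6 were called higher over all weeks in PyMT (Epcam 2.04, Elf5 2.29) and Krt19 was not (-0.59), while all 8 adipocyte, 10 skeletal muscle, 6 endothelial and 5 fibroblast markers were called lower. Summed adipocyte markers spanned 940.4 to 16736 in the PyMT libraries and 48830 to 122642 in the FVB libraries, and summed luminal markers 20119 to 37964 in the PyMT libraries and 4272 to 18558 in the FVB libraries. In such bulk tissue, fewer cells of a type and less RNA per cell cannot be told apart from counts alone, which holds for every difference below. From stained sections the authors report that their carcinoma samples were mostly tumour cells, with few stromal and muscle cells. They give no such estimate for the normal glands.

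Over all weeks, 11 of the 59 tested members were called higher in PyMT (18.6%) and 10 lower (16.9%). Of all tested genes, 8.51% were called higher and 17.2% lower, so the share of members called lower was near that of all genes and the share called higher was above it. The median log2 difference was 0.06 over the 59 members and -0.03 over all genes. By week, 6 members were called higher and 3 lower at week 6, 7 and 2 at week 8, 8 and 4 at week 10, and 8 and 8 at week 12. All genes tested gave 3.58% higher and 6.46% lower at week 6, 3.57% and 6.37% at week 8, 4.83% and 9.09% at week 10, and 7.75% and 13.0% at week 12. Slc26a2, Slc30a2 and Slc34a2 were called higher at each of the 4 weeks, and Slc12a4 was called lower at each. Altogether 24 members were called at 1 week or more, none of them in both directions, and 18 of these were also called over all weeks. Leaving out 1 library at a time, the week 6 count of 9 fell to 5 without PyMT replicate 1 or FVB replicate 1 or 2. The week 8 count fell from 9 to 2 without PyMT replicate 1 or FVB replicate 2 and to 4 without PyMT replicate 3. The week 10 count fell from 12 to 7 without any 1 of the 3 PyMT replicates, and the week 12 count from 16 to 10 without PyMT replicate 3. Over all weeks the count stayed between 20 and 23 in this way. With the 13 libraries with packets left out it was 17 (8 higher, 9 lower, 15 shared with the 21): Slc39a13, Slc4a3 and Slc39a11 then lay under the fold threshold at -0.98, -0.97 and 0.97 on the log2 scale, and Slc26a6, Slc26a7 and Slc39a4 had adjusted p-values of 0.071, 0.075 and 0.14. With 4 FVB libraries rich in skeletal muscle RNA left out, an alternative chosen after the values were seen, the count was 20 (10 and 10, 19 shared). Scaling by library size alone placed the median log2 difference of all genes at 0.19 to 0.32 in these comparisons, in place of -0.08 to 0.01, and the calls were then 7 higher and 0 lower at week 6, 10 and 3 at week 10, 10 and 6 at week 12, and 14 and 8 over all weeks. In 7 members all 12 PyMT libraries lay above all 12 FVB libraries (Slc9a3r1, Slc20a1, Slc26a2, Slc30a2, Slc30a5, Slc34a2 and Slc41a1), against 4.67% of all genes. In 6 members all 12 lay below, Slc4a8, Slc12a4, Slc24a3, Slc26a10 and Slc39a13 among them, against 7.22% of all genes.

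**Figure D1:**
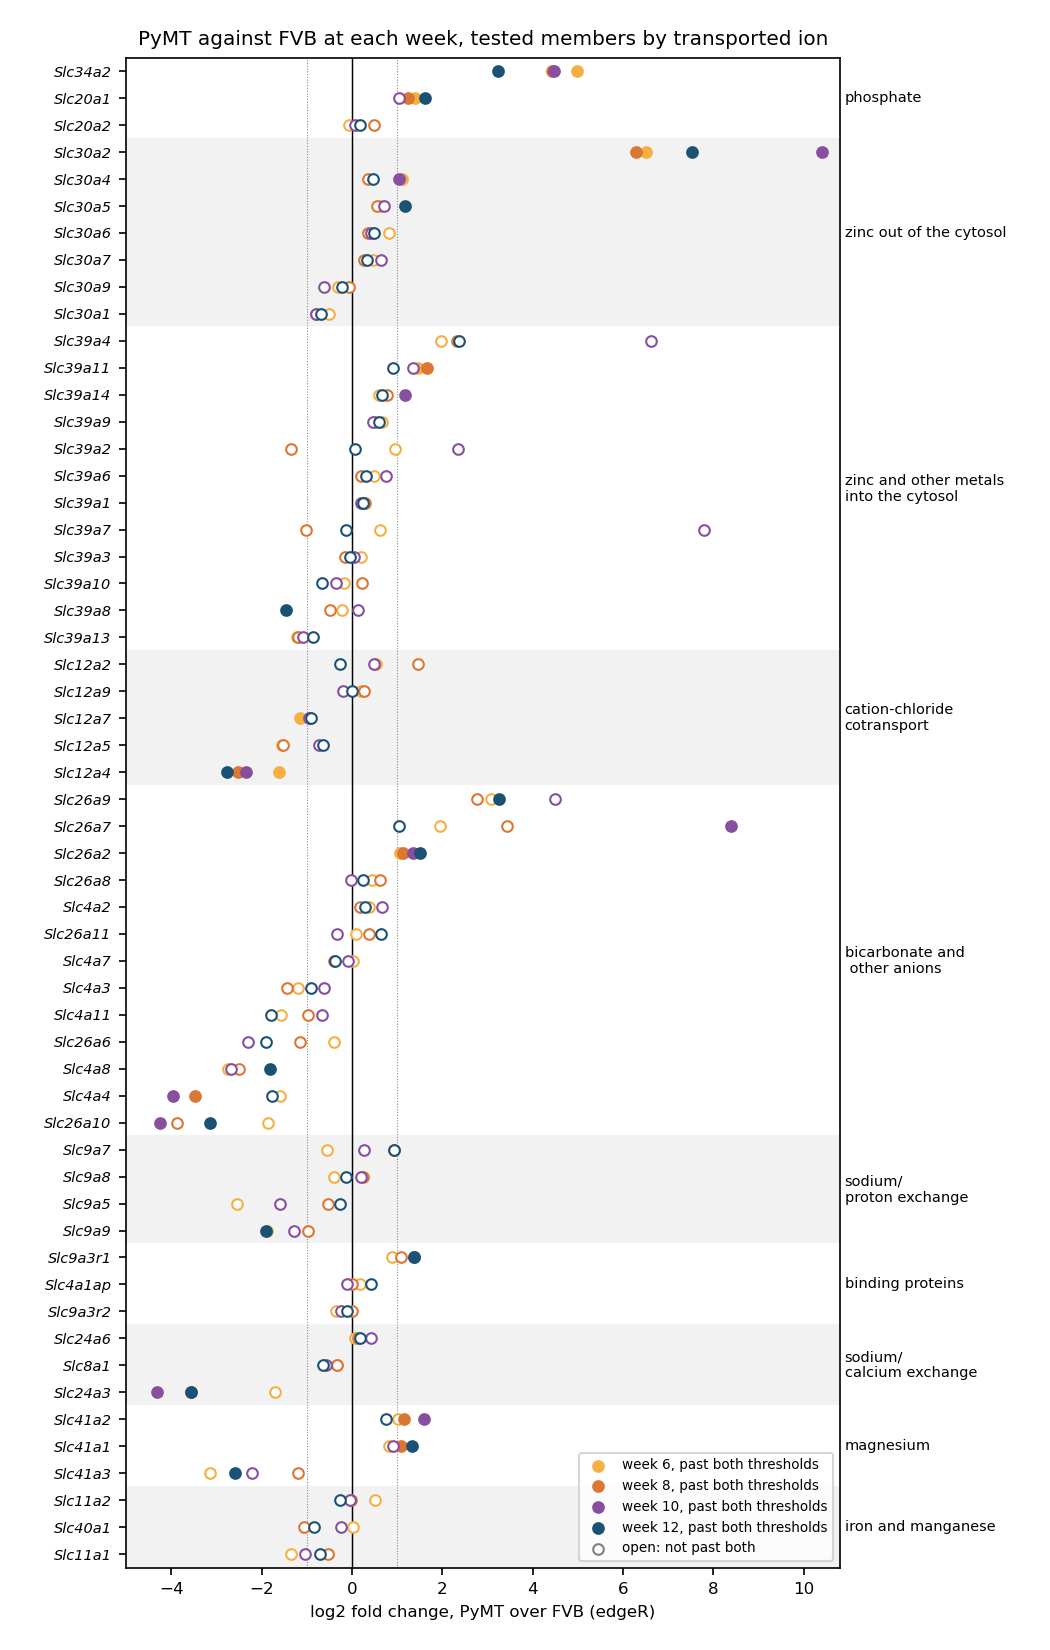
Log2 fold change of PyMT over FVB (x axis) at weeks 6, 8, 10 and 12 for the tested members reported here (rows), grouped by transported ion. Filled points passed both thresholds (adjusted p under 0.05 and fold over 2) and open points did not; Slc34a2 and Slc30a2 are filled at all 4 weeks on the right and Slc12a4 on the left.

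No member was called between weeks within a genotype. The edgeR test called 0.00% of all tested genes between weeks 6 and 12 in PyMT mice, 0.00% between the same weeks in FVB mice, and 0.00% for a change of the PyMT to FVB difference from week 6 to week 12. At an unadjusted p under 0.05 there were 1004, 625 and 691 genes in these 3 comparisons, among them 3, 4 and 2 members. DESeq2 called 97, 19 and 10 genes in them and none of the members. No order over time is read from the 4 weekly differences given below.

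Of the 3 phosphate carriers tested, Slc34a2 and Slc20a1 were higher in PyMT and Slc20a2 was not called. Slc34a2 (ENSMUSG00000029188, chr5:53429321-53462903, mm9) encodes NaPi-IIb, the sodium-phosphate cotransporter of the apical membrane of lung, gut and lactating mammary epithelium. Its normalised counts were 1464, 1314 and 1672 in PyMT and 61.4, 36.2 and 43.2 in FVB glands at week 6. They were 1282, 1528 and 886 in PyMT and 90.8, 45.4 and 37.3 in FVB glands at week 8. They were 1161, 729 and 1708 in PyMT and 43.8, 1.00 and 129.9 in FVB glands at week 10, and 1051, 1136 and 966 in PyMT and 78.0, 80.7 and 188 in FVB glands at week 12. Every PyMT library lay above every FVB library, and the lowest FVB value, 1.00, came from 1 of the week 10 libraries with packets. The log2 differences were 4.99, 4.42, 4.48 and 3.22 at weeks 6, 8, 10 and 12 and 4.26 ± 0.36 (adjusted p = 6.2e-10) over all weeks. The week 10 call was lost without PyMT replicate 1, 2 or 3 or FVB replicate 1 (log2 difference 4.11 to 4.75, adjusted p 0.056 to 0.088).

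Slc20a1 (ENSMUSG00000027397, chr2:129024500-129037352, mm9) encodes PiT-1, a sodium-phosphate cotransporter found in most cells. Its counts were 563 to 1213 (median 922) in PyMT and 202 to 514 (median 389) in FVB, without overlap. The log2 difference over all weeks was 1.31 ± 0.16 (adjusted p = 2.0e-07), and it was called at weeks 6, 8 and 12 (1.39, 1.24 and 1.62) but not at week 10 (1.05 ± 0.37, adjusted p = 0.1). The week 6 call was lost without PyMT replicate 1 or 3 or FVB replicate 2 (log2 difference 1.29 to 1.37, adjusted p 0.067 to 0.07), and the week 8 call without FVB replicate 2 (log2 difference 1.26, adjusted p 0.055). Slc20a2 encodes the closely related PiT-2 and was not called at any week. It had counts of 372 to 557 (median 514) in PyMT and 321 to 756 (median 421) in FVB, and a log2 difference of 0.16 ± 0.13 (adjusted p = 0.31) over all weeks. Per kilobase, the ratio of Slc20a1 to Slc20a2 was 0.690 to 1.93 (median 1.28) in PyMT and 0.232 to 0.840 (median 0.640) in FVB. The ratio of Slc34a2 to Slc20a1 per kilobase was 0.841 to 3.38 (median 1.59) in PyMT and 0.00217 to 0.680 (median 0.179) in FVB. NaPi-IIb RNA thus reached the level of PiT-1 RNA or more in most PyMT libraries and stayed below it in every FVB library. The renal cotransporter genes Slc34a1 and Slc34a3 had no count and 1 library with a count. Xpr1, the phosphate exporter, had a log2 difference of -0.43 ± 0.12 (adjusted p = 0.0042) over all weeks and was not called.

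Among the carriers that take zinc out of the cytosol, Slc30a2 (ENSMUSG00000028836, chr4:133899096-133910399, mm9) was nearly absent from FVB glands. It encodes ZnT2, which loads zinc into the vesicles of secreting mammary epithelium and whose loss in mothers leaves milk short of zinc. Normalised counts were 358, 214 and 313 in PyMT and 3.48, 0 and 6.17 in FVB glands at week 6, and 171, 75.0 and 224 in PyMT and 0, 0 and 5.65 in FVB glands at week 8. They were 253, 139 and 84.4 in PyMT and 0, 0 and 0 in FVB glands at week 10, and 95.6, 76.9 and 123 in PyMT and 0, 1.26 and 0 in FVB glands at week 12. All 12 PyMT libraries had counts and 4 of 12 FVB libraries did. Summed over the 3 libraries of a group, the scaled ratio of counts was 99.2 at week 6 (95% exact binomial interval 53.8 to 208) and 85.1 at week 8 (36.3 to 263). At week 12 the FVB group held 1 count, which gave a ratio of 244 (43.5 to 9679). At week 10 all 3 FVB libraries were at 0 against 516 counts, and the lower limit of the interval was 129.9. Against a floor of 3 counts over the group the ratio was 160.2. Those FVB libraries had packets of 12 to 19 counts, and with a floor of 3 packets of 19 the ratio was 8.43. These intervals cover counting error only and take counts as independent. Where counts come in packets, as in the 3 PyMT libraries of week 6, the intervals are too narrow. The edgeR log2 difference over all weeks was 7.04 ± 0.56 (adjusted p = 2.9e-10), a fitted value that depends on the small count added to each library, and the gene was called at each week, the week 8 call being lost without PyMT replicate 1 or 3 or FVB replicate 2 (log2 difference 5.73 to 6.23, adjusted p 0.056 to 0.079).

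The promoters of 5 members described here, chosen after their values were seen, are shown for their sequence content, since zinc regulates some carriers through metal response elements bound by Mtf1. The sequences are those of RefSeq on GRCm38.p6, from 250 bases before to 50 after the annotated start, and 66 of the 87 members matched, with 83 promoters. Capitals mark matches on either strand to the core of the metal response element, searched as TGCACNC and TGCGCNC, in which neighbouring matches may overlap. Where a gene has a pair of promoters, both are given, and those without capitals hold no match.
Slc30a2, chr4:134343216-134343515, plus strand: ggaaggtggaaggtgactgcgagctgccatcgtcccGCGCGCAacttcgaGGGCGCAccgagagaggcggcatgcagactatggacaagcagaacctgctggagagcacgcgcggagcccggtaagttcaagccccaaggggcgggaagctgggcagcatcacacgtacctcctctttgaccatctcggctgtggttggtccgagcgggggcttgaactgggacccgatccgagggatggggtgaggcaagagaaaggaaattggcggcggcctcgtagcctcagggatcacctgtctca
Slc34a2, chr5:53049103-53049402, plus strand: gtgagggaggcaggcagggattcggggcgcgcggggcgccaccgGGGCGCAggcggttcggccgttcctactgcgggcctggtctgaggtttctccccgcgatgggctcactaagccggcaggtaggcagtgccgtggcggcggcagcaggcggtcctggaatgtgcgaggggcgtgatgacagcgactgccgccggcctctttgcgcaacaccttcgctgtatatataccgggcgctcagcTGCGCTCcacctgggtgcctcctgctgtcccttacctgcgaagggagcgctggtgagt
Slc20a1, chr2:129198523-129198822, plus strand: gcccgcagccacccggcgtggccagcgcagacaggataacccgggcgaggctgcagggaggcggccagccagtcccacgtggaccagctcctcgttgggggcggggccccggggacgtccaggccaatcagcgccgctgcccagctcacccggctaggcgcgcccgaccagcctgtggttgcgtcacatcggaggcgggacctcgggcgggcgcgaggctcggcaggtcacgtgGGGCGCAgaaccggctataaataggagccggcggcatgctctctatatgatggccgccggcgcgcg
Slc20a1, chr2:129206846-129207145, plus strand: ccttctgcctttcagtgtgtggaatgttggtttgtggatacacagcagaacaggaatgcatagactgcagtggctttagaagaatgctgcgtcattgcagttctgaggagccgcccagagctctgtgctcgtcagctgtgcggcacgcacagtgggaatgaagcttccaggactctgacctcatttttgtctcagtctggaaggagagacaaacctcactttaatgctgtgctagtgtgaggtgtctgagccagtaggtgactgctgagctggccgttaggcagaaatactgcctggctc
Slc12a4, chr8:105966066-105966365, minus strand: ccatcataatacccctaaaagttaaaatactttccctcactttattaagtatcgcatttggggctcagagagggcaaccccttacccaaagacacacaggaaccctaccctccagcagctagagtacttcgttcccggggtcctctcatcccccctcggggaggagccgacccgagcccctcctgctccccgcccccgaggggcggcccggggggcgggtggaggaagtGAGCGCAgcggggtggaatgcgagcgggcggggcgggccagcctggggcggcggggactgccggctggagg
Slc24a3, chr2:145167525-145167824, plus strand: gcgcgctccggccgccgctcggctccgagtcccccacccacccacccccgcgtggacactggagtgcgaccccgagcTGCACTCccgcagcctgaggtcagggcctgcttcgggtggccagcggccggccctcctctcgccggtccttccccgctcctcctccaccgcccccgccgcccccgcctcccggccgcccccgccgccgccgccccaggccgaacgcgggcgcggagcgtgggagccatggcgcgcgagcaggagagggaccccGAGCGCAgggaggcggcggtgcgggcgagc
Slc24a3, chr2:145242361-145242660, plus strand: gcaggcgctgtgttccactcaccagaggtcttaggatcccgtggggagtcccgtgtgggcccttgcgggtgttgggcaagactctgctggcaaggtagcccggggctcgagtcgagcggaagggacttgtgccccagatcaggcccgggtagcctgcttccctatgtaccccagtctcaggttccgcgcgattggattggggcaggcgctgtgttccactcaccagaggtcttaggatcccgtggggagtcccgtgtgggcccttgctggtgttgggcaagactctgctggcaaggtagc
The core was found in 25.7% of all 32851 promoters and in 33 of the 83 promoters of members (39.8%). It was present in 8 of the 10 matched promoters of members called higher over all weeks (80%) and in 6 of the 12 of members called lower (50%). Median G and C content, on which a match to these letters depends, was 52.7% over all promoters, 60% over those of members, 62.3% over those called higher and 64.3% over those called lower. The lactation-related core TTCNNNGAA, read by Stat5, was in 8.3% of all promoters, in 2 of 83 promoters of members, and in none of those called higher or lower. These are matches of letters in a short window and not sites, and regulation of the members by zinc or Mtf1 was not tested. Mtf1 RNA did not pass the test (log2 difference -0.12 ± 0.19, adjusted p = 0.61 over all weeks), and neither did the metallothioneins Mt1 (0.06 ± 0.16, adjusted p = 0.76) and Mt2 (-0.06 ± 0.30, adjusted p = 0.88), which bind zinc and are classical targets of Mtf1.

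The other zinc carriers out of the cytosol differed less. Slc30a4 encodes ZnT4, the carrier mutated in the lethal milk mouse, and its counts were 707 to 1756 (median 916) in PyMT and 469.9 to 751 (median 570.4) in FVB. It was called higher at week 6 (1.10 ± 0.24, adjusted p = 0.021) and week 10 (1.03 ± 0.18, adjusted p = 0.0067). Over all weeks its log2 difference of 0.73 ± 0.11 (adjusted p = 5.6e-06) stayed under the fold threshold. The week 6 call was lost without PyMT replicate 2 or FVB replicate 1 or 2 (log2 difference 0.87 to 1.10, adjusted p 0.033 to 0.081). The week 10 call was lost without PyMT replicate 2 or FVB replicate 2 (log2 difference 0.96 to 0.98, adjusted p 0.024 to 0.032). Slc30a5, whose product works with that of Slc30a6 to supply zinc to enzymes of the early secretory pathway, had counts of 771 to 1025 (median 824) in PyMT and 305 to 695 (median 549.7) in FVB. The libraries of the 2 genotypes did not overlap. Its log2 difference was 0.75 ± 0.09 (adjusted p = 4.1e-07) over all weeks and 1.18 ± 0.19 (adjusted p = 0.0027) at week 12, the only week at which it was called. The week 12 call was lost without FVB replicate 2 (log2 difference 0.99, adjusted p 0.0036). Slc30a1, the zinc exporter of the plasma membrane, had a log2 difference of -0.71 ± 0.13 (adjusted p = 1.0e-04) over all weeks, past the p but not the fold threshold. Slc30a6 (0.51), Slc30a7 of the Golgi (0.42) and Slc30a9 (-0.31) were not called. Per kilobase, the ratio of Slc30a4 to Slc30a1 was 2.23 to 6.20 (median 3.89) in PyMT and 1.06 to 2.11 (median 1.38) in FVB, with no overlap. Slc30a5 was the most abundant member of the family in both genotypes, at 273 ± 30.6 per kilobase in PyMT and 165 ± 33.2 in FVB (SD, n = 12 each). Slc30a2 made up 5.77% ± 2.73 of the summed family level per kilobase in PyMT libraries and 0.0645% ± 0.108 in FVB libraries (SD, n = 12 each).

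**Figure D2:**
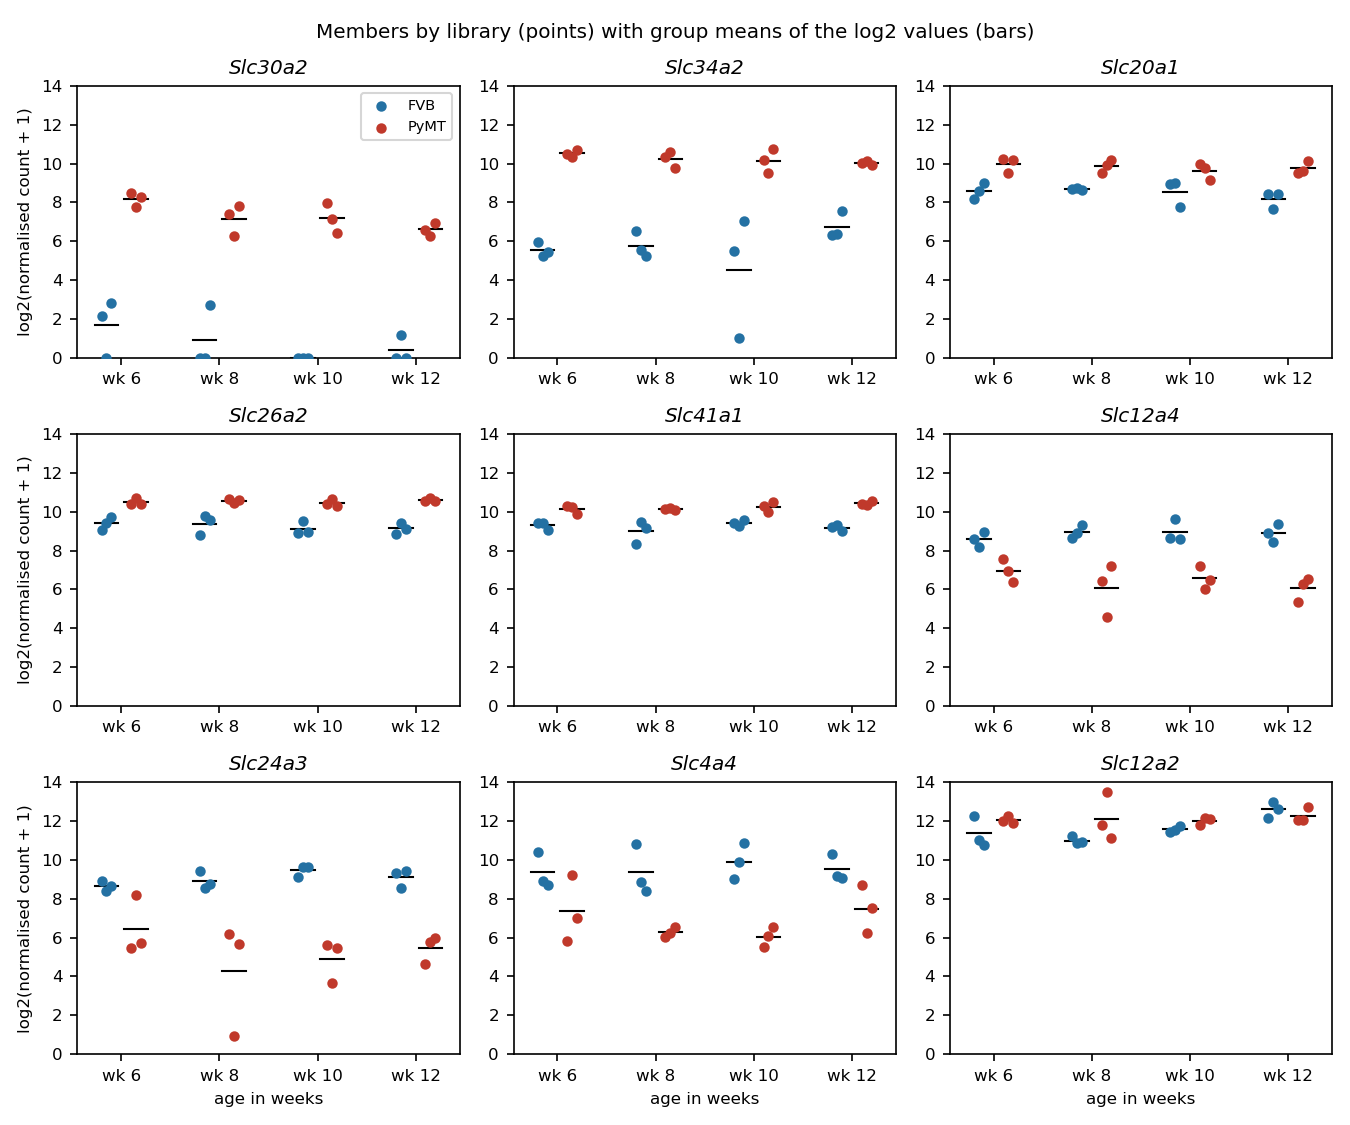
Normalised counts on a log2(count + 1) scale (y axis) of 9 members in each of the 24 libraries by week (x axis), FVB in blue and PyMT in red, with bars at the group mean of the log2 values. Slc30a2, Slc34a2, Slc20a1, Slc26a2 and Slc41a1 lie higher in every PyMT library, Slc12a4 and Slc24a3 lie lower, and Slc4a4 and Slc12a2 overlap.

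Carriers that bring zinc and other metals into the cytosol moved in both directions. Slc39a11, which encodes ZIP11, had counts of 234 to 574 (median 384) in PyMT and 75.1 to 236 (median 151) in FVB, and the genotypes overlapped. Its log2 difference was 1.33 ± 0.18 (adjusted p = 8.2e-07) over all weeks. It was called at weeks 6 (1.47) and 8 (1.65), but not at weeks 10 (1.35 ± 0.43, adjusted p = 0.074) and 12 (0.92 ± 0.29, adjusted p = 0.048). The week 6 call was lost without PyMT replicate 1 (log2 difference 1.49, adjusted p 0.052), and the week 8 call without PyMT replicate 1 or FVB replicate 2 (log2 difference 1.46 to 1.61, adjusted p 0.067 to 0.086). Slc39a4, the zinc uptake carrier of the intestine, was a low gene with counts of 11.5 to 122 (median 63.5) in PyMT and 0 to 46.3 (median 4.85) in FVB. It was called higher over all weeks (2.87 ± 0.76, adjusted p = 0.0028) and at no single week. Slc39a14 encodes ZIP14, which takes up zinc, iron and manganese, and had counts of 1130 to 2219 (median 1643) in PyMT and 574 to 1189 (median 958) in FVB. It was called at week 10 (1.18 ± 0.29, adjusted p = 0.029), a call lost without PyMT replicate 1, 2 or 3 or FVB replicate 2 or 3 (log2 difference 0.94 to 1.28, adjusted p 0.015 to 0.1). Its difference over all weeks was 0.79 ± 0.13 (adjusted p = 1.8e-05). Slc39a13, whose product ZIP13 is needed for connective tissue, went the other way, with counts of 103 to 191 (median 136) in PyMT and 252 to 387 (median 317) in FVB and no overlap. It was called lower over all weeks (-1.10 ± 0.12, adjusted p = 4.0e-08) and at week 6 (-1.21 ± 0.26, adjusted p = 0.022). Its week 6 call was lost without PyMT replicate 1 or 3 or FVB replicate 1, 2 or 3 (log2 difference -1.24 to -1.13, adjusted p 0.064 to 0.077). Summed fibroblast markers spanned 11558 to 24446 in the PyMT libraries and 26176 to 101433 in the FVB libraries, and their part in the lower Slc39a13 was not tested. Slc39a8, the manganese and zinc carrier ZIP8, was called lower at week 12 (-1.47 ± 0.34, adjusted p = 0.014) but not over all weeks (-0.51 ± 0.24, adjusted p = 0.077). The week 12 value did not hold without PyMT replicate 3 (log2 difference -1.43, adjusted p 0.055).

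Of the remaining members of this family, none was called. Slc39a1 was the second most abundant member of all 87 per kilobase over the libraries of either genotype, at 464 ± 56.1 in PyMT and 398 ± 58.0 in FVB (SD, n = 12 each), and its log2 difference was 0.24 ± 0.09 (adjusted p = 0.032) over all weeks. Slc39a6, the oestrogen-regulated carrier LIV-1, had counts of 188 to 338 (median 258) in PyMT and 32.9 to 351 (median 203) in FVB and a log2 difference of 0.42 ± 0.26 (adjusted p = 0.19). The log2 differences over all weeks were 0.55 for Slc39a9, -0.25 for Slc39a10 and -0.01 for Slc39a3. Slc39a7 read low, with a highest value of 50.3 in any library, and shares exon sequence on the same strand with the gene model Gm20427, so its values are uncertain.

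Of the 6 cation-chloride cotransporters tested, Slc12a4 was the only one called over all weeks. Slc12a4 (ENSMUSG00000017765, chr8:108467490-108489974, mm9) encodes KCC1, which lets potassium and chloride out of the cell and serves in volume control. Its counts were 187, 121 and 81.1 in PyMT and 385, 291 and 504 in FVB glands at week 6, and 84.9, 22.5 and 146 in PyMT and 395, 472 and 638 in FVB glands at week 8. They were 145, 65.0 and 87.9 in PyMT and 408, 799 and 382 in FVB glands at week 10, and 40.1, 78 and 93.3 in PyMT and 482, 349 and 662 in FVB glands at week 12. All PyMT libraries lay below all FVB libraries, with 187 the highest PyMT value and 291 the lowest FVB value. The log2 differences were -1.61, -2.52, -2.35 and -2.76 at weeks 6, 8, 10 and 12, each called, and -2.32 ± 0.26 (adjusted p = 8.2e-08) over all weeks. The week 6 call was lost without PyMT replicate 2 or 3 or FVB replicate 1 or 3 (log2 difference -1.60 to -1.31, adjusted p 0.057 to 0.11). The week 8 call was lost without PyMT replicate 1 or FVB replicate 2 or 3 (log2 difference -2.56 to -2.29, adjusted p 0.097 to 0.13). With 4 FVB libraries rich in skeletal muscle RNA left out, the difference over all weeks was -2.50.

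Slc12a7 encodes KCC4, a further exporter. Slc12a7 was called at week 6 (-1.16 ± 0.26, adjusted p = 0.025), a call lost without PyMT replicate 1 or 3 or FVB replicate 1 or 3 (log2 difference -1.13 to -0.93, adjusted p 0.066 to 0.083). Its difference over all weeks was just short of the threshold (-1.0, adjusted p = 1.1e-06). Slc12a2 encodes NKCC1, the sodium-potassium-chloride cotransporter that loads chloride for secretion. It was the most abundant member per kilobase in 7 of the 8 groups. Only in FVB glands of week 8 did Slc39a1 stand above it. Slc12a2 counts were 2232 to 11547 (median 4270) in PyMT and 1778 to 8156 (median 2920) in FVB, and the genotypes overlapped widely. The log2 difference was 0.54 ± 0.24 (adjusted p = 0.064) over all weeks, and at no week did it pass the test (0.53, 1.47, 0.48 and -0.27). One PyMT library of week 8 held the highest value and was among the libraries with packets. Slc12a5, the neuronal exporter KCC2, and Slc12a9 were not called. Of the 5 kinases tested that switch these carriers, Stk39 (SPAK) was called higher at each week. It had counts of 1546 to 2618 (median 1967) in PyMT and 216 to 544 (median 412) in FVB, and a log2 difference of 2.29 ± 0.13 (adjusted p = 1.4e-12) over all weeks. Wnk2 was higher over all weeks (1.48 ± 0.22, adjusted p = 3.8e-06), while Wnk1 (-0.53 ± 0.08, adjusted p = 1.3e-05) and Oxsr1 (-0.08 ± 0.09, adjusted p = 0.46) were not called.

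**Figure D3:**
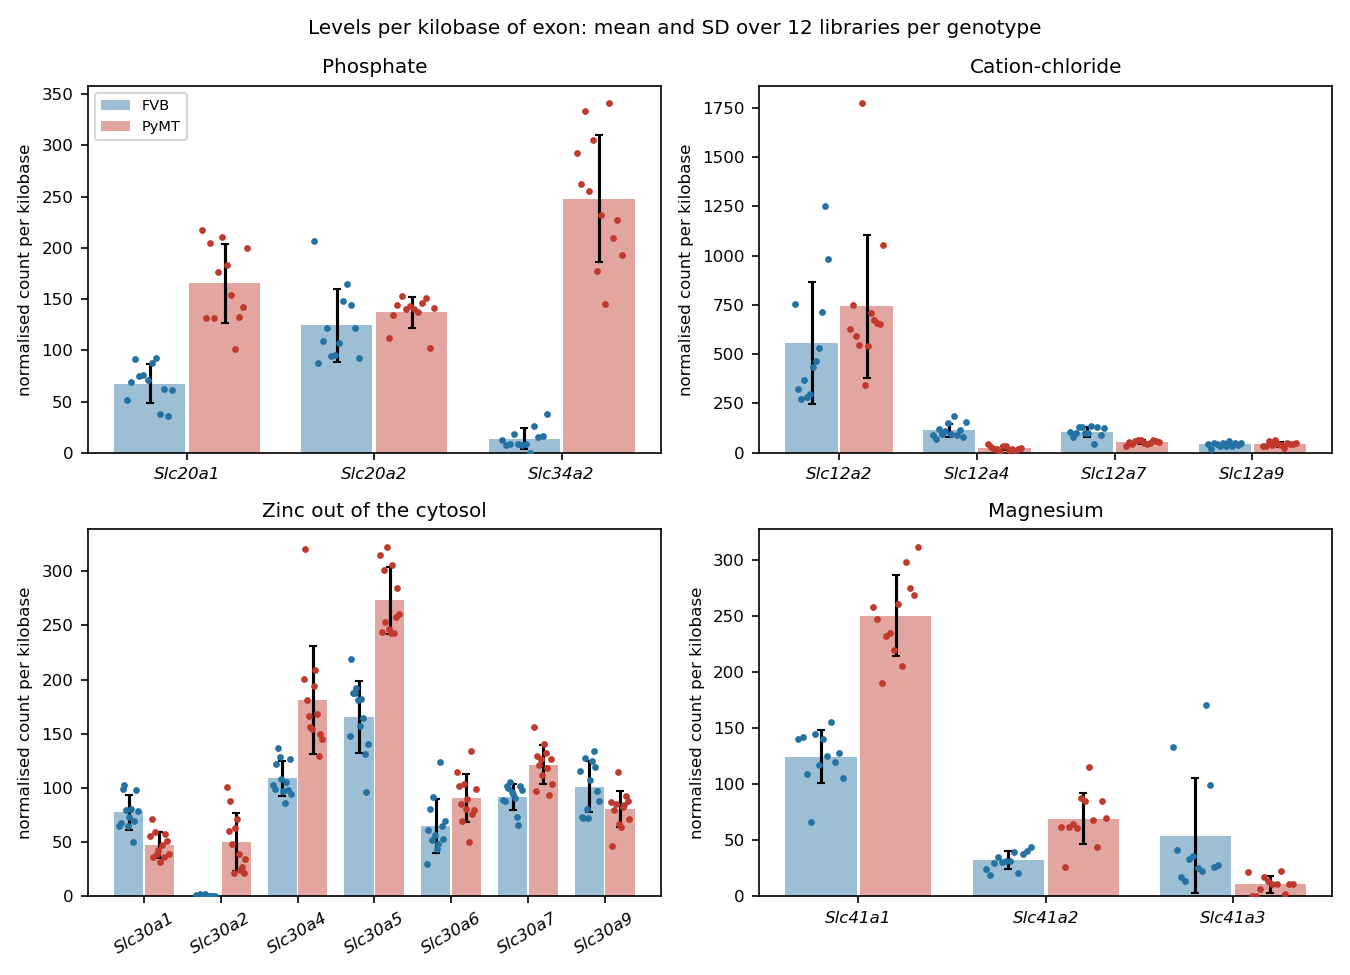
Normalised counts per kilobase of exon (y axis) of phosphate, cation-chloride, zinc and magnesium carriers, FVB in blue and PyMT in red, with bars at the mean, error bars of 1 SD and a point for each of the 12 libraries per genotype. Slc34a2 averages 248 in PyMT and 13.9 in FVB, whereas Slc20a2 averages 137 and 124.

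The carriers of bicarbonate, chloride, sulphate and other anions gave 3 members called higher and 5 called lower over all weeks among 13 tested. Of all tested genes, 8.51% were called higher and 17.2% lower, and the counts of this small class were not tested against these shares. Slc26a2 encodes the sulphate carrier that supplies proteoglycan synthesis, and its counts were 1250 to 1698 (median 1520) in PyMT and 448 to 878 (median 625) in FVB, without overlap. Its log2 differences were 1.06, 1.14, 1.34 and 1.5 at weeks 6, 8, 10 and 12 and 1.25 ± 0.11 (adjusted p = 2.0e-09) over all weeks. The week 6 call was lost without PyMT replicate 1 or FVB replicate 1 or 2 (log2 difference 0.92 to 1.15, adjusted p 0.029 to 0.058), and the week 8 call without PyMT replicate 1, 2 or 3 or FVB replicate 1, 2 or 3 (log2 difference 0.92 to 1.35, adjusted p 0.02 to 0.11). Slc26a9, a chloride carrier of epithelia, was low, with counts of 0 to 177 (median 89.3) in PyMT and 0 to 26 (median 3.66) in FVB. It was called over all weeks (3.36 ± 0.78, adjusted p = 8.4e-04) and at week 12 (3.25 ± 0.80, adjusted p = 0.018). At week 12 the call did not hold without PyMT replicate 3 or FVB replicate 3 (log2 difference 2.85 to 3.23, adjusted p 0.052 to 0.064). Slc26a7, an anion exchanger known from stomach and kidney, had counts of 4.45 to 78.6 (median 27.5) in PyMT and 0 to 37.8 (median 0) in FVB. Its log2 difference over all weeks was 2.94 ± 0.96 (adjusted p = 0.013), and without the 4 muscle-rich FVB libraries it was 2.38 (adjusted p = 0.059). Its week 10 call set 122 PyMT counts against none in the 3 FVB libraries (lower limit of the 95% exact binomial interval 30.35). The ratio was 37.9 against 3 counts over the group and 1.99 against 3 packets of 19. The call was lost without PyMT replicate 1, 2 or 3 or FVB replicate 1 or 2 (log2 difference 7.49 to 8.72, adjusted p 0.067 to 0.13).

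Slc4a4 (ENSMUSG00000060961, chr5:89315843-89668678, mm9) encodes NBCe1, the electrogenic sodium-bicarbonate cotransporter. Its counts were 56.1, 598 and 128 in PyMT and 1372, 485 and 426 in FVB glands at week 6, and 63.9, 76.0 and 91.8 in PyMT and 1790, 463 and 340.1 in FVB glands at week 8. They were 44.5, 67.1 and 93.8 in PyMT and 512, 943 and 1875 in FVB glands at week 10, and 418, 75.9 and 182 in PyMT and 1265, 588 and 538 in FVB glands at week 12. The PyMT libraries of weeks 8, 10 and 12 lay below all FVB libraries of their week, whereas at week 6 1 PyMT library lay above 2 FVB libraries. It was called lower at week 8 (-3.46 ± 0.65, adjusted p = 0.016) and week 10 (-3.95 ± 0.53, adjusted p = 0.0024) and over all weeks (-2.69 ± 0.45, adjusted p = 2.2e-05). The week 8 call did not hold without PyMT replicate 1 or 3 (log2 difference -3.63 to -3.35, adjusted p 0.051 to 0.076). Slc4a8, a sodium-driven chloride/bicarbonate exchanger, was low and did not overlap between genotypes, with counts of 0 to 36.9 (median 14.9) in PyMT and 46.3 to 135 (median 89.0) in FVB. Over all weeks its log2 difference was -2.45 ± 0.58 (adjusted p = 0.0011). The week 12 call (-1.82 ± 0.57, adjusted p = 0.045) was lost without PyMT replicate 2 or 3 or FVB replicate 1 or 3 (log2 difference -1.83 to -1.56, adjusted p 0.11 to 0.17). Slc26a10 had counts of 0 to 32.3 (median 8.45) in PyMT and 37.0 to 179 (median 121) in FVB, without overlap. It was called lower at weeks 10 and 12 and over all weeks (-3.28 ± 0.53, adjusted p = 1.3e-05). Its week 10 call was lost without PyMT replicate 1 or 3 or FVB replicate 1 or 2 (log2 difference -5.10 to -4.25, adjusted p 0.083 to 0.14). Slc26a6, an exchanger of chloride for oxalate or bicarbonate, was called over all weeks only (-1.44 ± 0.37, adjusted p = 0.002). Slc4a3, the exchanger AE3 of heart and brain, was also called over all weeks only (-1.05 ± 0.21, adjusted p = 1.8e-04). This call was lost without PyMT week 8 replicate 2 or FVB week 8 replicate 2 or FVB week 10 replicate 1 (log2 difference -0.98 to -0.96, adjusted p 4.3e-04 to 6.8e-04). The ubiquitous exchanger Slc4a2 (AE2) was the most abundant Slc4 carrier per kilobase in 7 of the 8 groups, FVB glands of week 10 excepted, where Slc4a4 had the higher mean, and it was not called (0.36 ± 0.09, adjusted p = 0.0021), nor was the cotransporter Slc4a7 (-0.22 ± 0.16, adjusted p = 0.25). Per kilobase, the ratio of Slc4a2 to Slc4a4 was 1.88 to 34.5 (median 14.7) in PyMT and 0.412 to 4.12 (median 1.66) in FVB, with some overlap.

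None of the 6 sodium/proton exchangers tested was called higher, too few members to set against the 8.51% of all genes called higher over all weeks. Slc9a9 of recycling endosomes had counts of 20.9 to 108 (median 71.9) in PyMT and 79.5 to 333 (median 208) in FVB. It was called lower over all weeks (-1.51 ± 0.25, adjusted p = 1.8e-05). The week 12 difference was also called (-1.90 ± 0.39, adjusted p = 0.0086). The Golgi exchanger Slc9a8 had a log2 difference of -0.03 ± 0.12 (adjusted p = 0.85) over all weeks.

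The scaffold Slc9a3r1 (NHERF1), which anchors transporters at the apical membrane, was the only binding protein called. Its counts were 439 to 928 (median 612) in PyMT and 123 to 437 (median 307) in FVB, without overlap, and its log2 difference was 1.17 ± 0.19 (adjusted p = 1.6e-05) over all weeks. The call at week 10 (1.36) was lost without PyMT replicate 2 or 3 (log2 difference 1.25 to 1.36, adjusted p 0.052 to 0.057). The call at week 12 (1.38) was lost without PyMT replicate 2 or 3 or FVB replicate 3 (log2 difference 1.17 to 1.41, adjusted p 0.056 to 0.082). Its paralogue Slc9a3r2 (NHERF2) was not called (-0.19 ± 0.12, adjusted p = 0.2), nor was Slc4a1ap (0.11 ± 0.14, adjusted p = 0.53). Proton and sodium pumps, which power these carriers, were read beside them from a list written with earlier results of these data known. Of the 5 proton pump subunits tested, Atp6v1b1 was called higher at each week. It had 828 to 3310 (median 2130) in PyMT and 180.4 to 599 (median 434) in FVB and a log2 difference of 2.39 ± 0.19 (adjusted p = 1.7e-10) over all weeks. Atp6v1c2 was called higher over all weeks (2.42 ± 0.42, adjusted p = 3.8e-05), whereas the ubiquitous subunit Atp6v1b2 was not (0.07 ± 0.08, adjusted p = 0.48). Of 9 sodium pump genes, 2 were called higher and 4 lower over all weeks, beside 8.51% and 17.2% of all tested genes. The regulator Fxyd3 was among the higher (1.43 ± 0.13, adjusted p = 1.2e-09), and Atp1b2 (-4.38 ± 0.67, adjusted p = 6.7e-06) and the regulator Fxyd1 (-3.71 ± 0.47, adjusted p = 5.2e-07) were among the lower. Fxyd1 is known from muscle, whose 10 markers were called lower over all weeks, with sums that overlapped between the genotypes. The highest PyMT sum was 36300 and the lowest FVB sum was 80.17. No PyMT library exceeded 64.97 normalised counts of Fxyd1, whereas every FVB library held at least 133.9. The part of muscle in the lower Fxyd1 was not tested.

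Of the 3 sodium/calcium exchangers tested, Slc24a3 (ENSMUSG00000063873, chr2:144993490-145467902, mm9), the potassium-dependent exchanger NCKX3, was the only member called. Its counts were 43.6, 295 and 51.1 in PyMT and 488, 340.1 and 405 in FVB glands at week 6, and 71.5, 0.938 and 49.4 in PyMT and 684, 369.8 and 434 in FVB glands at week 8. They were 48.9, 11.5 and 42.6 in PyMT and 564, 792 and 803 in FVB glands at week 10, and 23.6, 53.4 and 61.9 in PyMT and 634, 379 and 686 in FVB glands at week 12. All PyMT libraries lay below all FVB libraries, and 1 PyMT library of week 6 stood well above the other 11. That library also had the highest summed adipocyte markers of the PyMT libraries, 16736, and the PyMT library at 0.938 had the lowest, 940.4. The order of the other PyMT libraries was not the same. The part of adipocyte content in the lower Slc24a3 was not tested. The log2 difference over all weeks was -3.29 ± 0.44 (adjusted p = 1.1e-06), with calls at week 10 (-4.31 ± 0.52, adjusted p = 0.0016) and week 12 (-3.55 ± 0.41, adjusted p = 7.1e-04). Without the 4 muscle-rich FVB libraries the difference over all weeks was -3.47. Slc24a6, the mitochondrial exchanger NCLX, differed little, with counts of 259 to 508 (median 358) in PyMT and 182 to 472 (median 330.5) in FVB and a log2 difference of 0.19 ± 0.14 (adjusted p = 0.28). Slc8a1, the exchanger NCX1, was not called (-0.48 ± 0.19, adjusted p = 0.034). In FVB libraries Slc24a3 and Slc24a6 held similar shares of the Slc24 level per kilobase, 54.8% ± 9.91 and 44.6% ± 9.42, and in PyMT libraries the shares were 10.4% ± 10.0 and 88.7% ± 10.2 (SD, n = 12 each). Among 7 calcium pumps tested, Atp2b4 of the plasma membrane was called lower at each week. It had counts of 66.6 to 311 (median 182) in PyMT and 691 to 1973 (median 1315) in FVB and a log2 difference of -2.90 ± 0.23 (adjusted p = 1.8e-10) over all weeks. Atp2c2, the secretory pathway pump of mammary epithelium, was called higher at each week (2.27 ± 0.28, adjusted p = 3.2e-07 over all weeks), and the endoplasmic reticulum pump Atp2a2 did not pass the test (0.12 ± 0.08, adjusted p = 0.22).

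The 3 magnesium carriers divided. Slc41a1, a sodium/magnesium exchanger, had counts of 933 to 1531 (median 1239) in PyMT and 324 to 765 (median 621) in FVB, without overlap. The log2 difference was 1.02 ± 0.11 (adjusted p = 3.1e-08) over all weeks. The gene was called at week 8 (1.08) and week 12 (1.32 ± 0.16, adjusted p = 8.7e-04). The value over all weeks lay at the fold threshold and fell under it without PyMT week 12 replicate 3 or FVB week 8 replicate 1 or FVB week 12 replicate 3 (log2 difference 0.96 to 1.00, adjusted p 8.8e-09 to 1.1e-07). The week 8 call was lost without PyMT replicate 1, 2 or 3 or FVB replicate 1, 2 or 3 (log2 difference 0.84 to 1.34, adjusted p 0.027 to 0.14). Slc41a2 had counts of 138 to 617 (median 353) in PyMT and 101 to 234 (median 168) in FVB. It was called over all weeks (1.12 ± 0.17, adjusted p = 6.3e-06) and at weeks 8 (1.15) and 10 (1.59). At week 8 the call was lost without PyMT replicate 1 or 3 or FVB replicate 2 or 3 (log2 difference 0.95 to 1.21, adjusted p 0.086 to 0.13). At week 10 it was lost without PyMT replicate 1 or 2 (log2 difference 1.38 to 1.60, adjusted p 0.062 to 0.067).

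Slc41a3, a magnesium carrier of mitochondria, was lower, with counts of 61.4, 0 and 0 in PyMT and 373, 116 and 48.5 in FVB glands at week 6, and 18.1, 46.9 and 37.0 in PyMT and 39.1, 94.2 and 102 in FVB glands at week 8. They were 31.1, 31.4 and 63.1 in PyMT and 70.4, 63.1 and 479 in FVB glands at week 10, and 6.17, 31.0 and 31.4 in PyMT and 278, 74.4 and 78.7 in FVB glands at week 12. Its log2 difference was -2.30 ± 0.62 (adjusted p = 0.0031) over all weeks and -2.59 ± 0.77 (adjusted p = 0.038) at week 12. The call of Slc41a3 at week 12 was lost without PyMT replicate 1, 2 or 3 or FVB replicate 1 (log2 difference -2.90 to -1.68, adjusted p 0.073 to 0.19). The 4 FVB libraries with the highest summed skeletal muscle markers, at 141639 normalised counts or more against 36300 or less in every other library, were also the 4 with the highest Slc41a3, in the same order. With these 4 libraries left out, Slc41a3 was no longer called over all weeks (log2 difference -1.17, adjusted p = 0.15). Because they also held the highest FVB values of Slc41a3, leaving them out shrinks the difference by construction. The part of muscle in the lower Slc41a3 was not tested. Slc8a3 and Slc9a2, which did not pass the filter, had their highest FVB values in the same 4 libraries, 43.2 to 434 for Slc8a3 and 31.3 to 131 for Slc9a2. The highest PyMT values were 43.5 and 23.9. Among 6 other genes of magnesium transport, Cnnm4 was called higher at each week (1.56 ± 0.18, adjusted p = 1.1e-07 over all weeks) and Trpm6 over all weeks (1.35 ± 0.44, adjusted p = 0.013), while Trpm7 (0.03 ± 0.08, adjusted p = 0.8) and Magt1 (0.97 ± 0.14, adjusted p = 2.5e-06), which was called at week 8 only, were not.

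**Figure D4:**
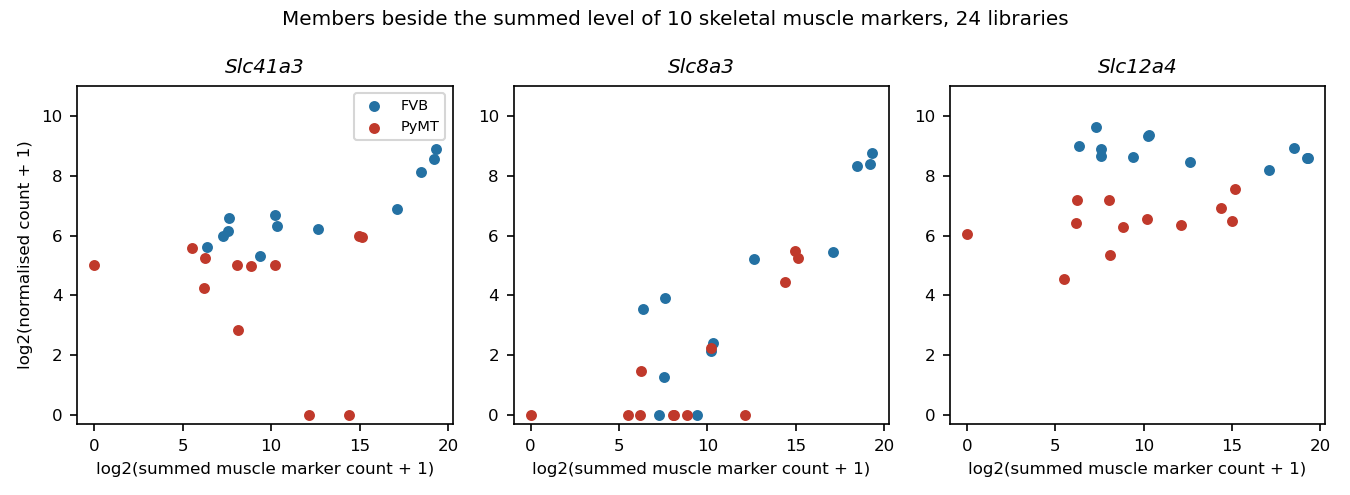
Log2(normalised count + 1) of Slc41a3, Slc8a3 and Slc12a4 (y axis) against log2(summed count + 1) of 10 skeletal muscle markers (x axis) in the 24 libraries, FVB in blue and PyMT in red. The 4 FVB libraries on the far right hold the highest Slc41a3, 3 of them hold the highest Slc8a3, and Slc12a4 is lower in every PyMT library whatever its muscle level.

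None of the iron and manganese carriers was called in any comparison. Slc40a1 (ferroportin), the iron exporter, had counts of 51.6 to 148 (median 111) in PyMT and 47.0 to 262 (median 169) in FVB and a log2 difference of -0.55 ± 0.23 (adjusted p = 0.049) over all weeks. Slc11a2 (DMT1), which brings iron into the cytosol, had 221 to 548 (median 344) in PyMT and 186 to 543 (median 345) in FVB and a log2 difference of 0.03 ± 0.17 (adjusted p = 0.92). Slc11a1 (NRAMP1), the carrier of phagosomes in macrophages, had 2.67 to 161 (median 82.2) in PyMT and 31.5 to 410 (median 126) in FVB and a log2 difference of -0.91 ± 0.36 (adjusted p = 0.036), beside a median log2 difference of -0.27 over 6 macrophage markers. Iron handling genes outside these families were called in both directions. Of 13 tested, 4 were called higher over all weeks, namely the transferrin receptor Tfrc (2.11 ± 0.16, adjusted p = 1.2e-10), transferrin Trf (2.37 ± 0.21, adjusted p = 1.1e-09), lactoferrin Ltf (2.95 ± 0.54, adjusted p = 7.6e-05) and ceruloplasmin Cp (1.57 ± 0.17, adjusted p = 5.2e-08). The 4 called lower were Heph (-3.06 ± 0.25, adjusted p = 3.5e-10), Steap4 (-1.56 ± 0.13, adjusted p = 7.5e-10), Steap3 and Bmp6. Tfrc counts were 1253 to 2975 (median 2010) in PyMT and 262 to 731 (median 472) in FVB, without overlap. The ferritin genes Fth1 (-0.27) and Ftl1 (-0.39) were not called. The copper carrier Slc31a2 was called higher at each week (2.04 ± 0.17, adjusted p = 6.5e-10 over all weeks). Over the 9 lists of pumps, storage proteins and regulators together, 15 of 56 tested genes were called higher and 10 lower over all weeks (26.8% and 17.9%), beside 8.51% and 17.2% of all tested genes. The share called lower was thus near that of all genes. The median log2 difference of the 56 was -0.03, as was that of all genes. These lists were written with earlier results of these data known, so the share called higher describes the listed genes only.

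The ratio of a member to the epithelial marker Epcam restates its difference relative to that of Epcam. By construction, members with a smaller difference than Epcam tend to a lower ratio in PyMT and those with a larger one to a higher ratio. The ratio of Slc34a2 to Epcam in normalised counts was 0.121 to 0.341 (median 0.217) in PyMT and 0.000817 to 0.243 (median 0.0350) in FVB. For Slc30a2 the ratio was 0.00918 to 0.0721 (median 0.0288) in PyMT and 0 to 0.00414 (median 0) in FVB. Both ratios thus had higher medians in PyMT, and that of Slc30a2 did not overlap. For Slc20a1 the same ratio was 0.102 to 0.260 (median 0.149) in PyMT and 0.0870 to 0.419 (median 0.336) in FVB, and for Slc26a2 it was 0.170 to 0.343 (median 0.273) in PyMT and 0.301 to 0.944 (median 0.435) in FVB. Slc41a1 had a ratio of 0.141 to 0.264 (median 0.238) in PyMT and 0.271 to 1.43 (median 0.445) in FVB, and Slc30a4 one of 0.105 to 0.345 (median 0.185) in PyMT and 0.268 to 1.08 (median 0.423) in FVB. In these last 4 the median was lower in PyMT, as it was for Slc39a11, Slc9a3r1, Slc41a2 and Slc12a2. The log2 difference of Epcam itself was 2.04 ± 0.17 (adjusted p = 4.1e-10) over all weeks. The part of epithelial content in each difference was not tested.

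Several gene models of the list overlap others. Exons of 21 members overlap another annotated gene, 5 of them on the same strand, including Slc12a5, Slc39a2 and Slc39a7. Of the called members named above, Slc12a4, Slc20a1, Slc26a10, Slc30a4 and Slc39a13 overlap a gene on the opposite strand. The libraries were directional, but whether strand was used in counting is not given in the sources used here, so the reads of such partners cannot be told apart.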

How the data were processed

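Gene counts came from 24 libraries of whole mammary tissue, 3 mice for each of 8 groups. According to the methods and labels, the authors depleted total RNA of ribosomal RNA, made directional libraries, aligned the reads to mm9 with GSNAP and counted them per gene with HTSeq, and they deposited the raw counts without normalisation. The annotation release and the strand setting are not given in the sources used here, and symbols, exons and coordinates were taken from GENCODE M1. Genes that reached 1 CPM in 12 or more samples entered edgeR (4.0.16, R 4.3.3) quasi-likelihood fits on TMM-scaled counts. The weekly fits held the 6 samples compared, and the comparisons over all weeks and between weeks used a fit of all 24 samples. A gene was called at a Benjamini-Hochberg adjusted p under 0.05 over all tested genes and a fold over 2. The standard error is the log2 difference divided by the square root of F. Levels are counts divided by DESeq2 (1.42.0) size factors. The scripts were tested on simulated data, and no pair of replicates was found to be the same library. Alternatives were RLE or library size scaling, no filter, DESeq2, a replicate block, counts divided by the packet size, other sample sets and leaving out each library. Members with a call were named, as were a fixed set of further members and lists of other genes of each pathway, and any other member named, such as Slc39a9 or Slc8a3, was added after its values were seen. The members and lists were chosen with earlier results of these data known. P-values set a difference against the spread between libraries of different mice, which includes variation of the libraries themselves. Intervals cover counting error only. Some members and pathway genes are counted but not reported here by name.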

Additional observations from a re-analysis of the deposited data

Results flagged for a closer look

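Slc9a8, which encodes a sodium/proton exchanger of the Golgi, had PyMT and FVB libraries that did not overlap at weeks 6 and 8, in opposite directions. At week 6 all 3 PyMT libraries lay below all 3 FVB libraries, with a log2 difference of -0.40. At week 8 all 3 lay above, with a log2 difference of 0.25. Neither difference passed the test, and the difference between the weeks was not tested. Such separation of 3 against 3 libraries was common among the 59 tested members. At week 6 it was seen in 15 members above and 14 below, and at week 8 in 15 and 13.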

How the results depend on the processing

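No call of a member reversed its direction under any alternative. The 67 calls (46 weekly, 21 over all weeks) were held in 1139 of 1270 recomputations, and 17 weekly calls and 13 calls over all weeks were held in all of theirs. The week 8 count of 9 members was 15 with DESeq2 and 14 both with counts divided by the packet size and with a fit of all 8 groups, and the week 10 count of 12 was 21 with DESeq2. Without a filter on low counts, 26 members were called over all weeks (13 higher, 13 lower), all 21 of the main calls among them. Leaving out 1 library at a time gave 5 to 11 members at week 6, 2 to 9 at week 8, 7 to 15 at week 10, 10 to 18 at week 12, 20 to 23 over all weeks, and 0 in the comparisons between weeks. The cause of these shifts was not tested. A replicate block lowered the week 6 count from 9 to 5 members (5 higher, 0 lower), and gave 7, 12, 15 and 21 at weeks 8, 10 and 12 and over all weeks. Whether the replicate numbers pair the samples could not be told from these data. Correlations of the deviations of same-numbered samples were -0.025 to 0.177 over 12 pairs, 4 of them over 0.1. Of 12 PyMT samples, 6 correlated best with their own number. The number of groups in which Slc12a2 was the highest member per kilobase was the same with TMM-scaled CPM, which rescales each library as a whole. Counts in packets limit what a count of 0 allows for low members.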
